A study of Mus musculus with 15 samples.

Results

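The effect of Apc deletion on the whole transcriptome of intestinal organoids was examined in 8 of the 15 libraries of the series, set against each other by line number. The labels do not say that libraries of the same number share an animal, and the data bear out such a pairing only in part, since the deviations of same-numbered libraries from their group means correlated at 0.226, 0.143, 0.0773 and -0.0852 for lines 1, 2, 5 and 6. WT comprised 4 libraries of Apc flox/flox organoids in ENR media, numbered 1, 2, 5 and 6, and Apc comprised 4 libraries of Apc delta/delta organoids in EN media that carry the same numbers. All 8 came from mice of mixed C57B6/129 strain, and no library of the dox-naive cultures was used. The organoids were grown in Matrigel from crypts of the proximal small intestine. ENR contains EGF, Noggin and R-spondin, and EN is the same medium without R-spondin, so that loss of Apc and withdrawal of R-spondin cannot be told apart in any value given here. The sources used here do not say how Apc was deleted in these cultures, nor whether the numbered libraries stem from separate animals. The p-values set the genotype difference against the spread left among these 8 samples after line number and genotype are fitted. Whether that is a spread between animals is not known.

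Apc is part of the cytoplasmic complex that marks beta-catenin for destruction, and cells without it keep Wnt signalling on without ligand. In the crypt, Wnt signals maintain stem cells, and epithelial cells leaving the crypt switch on the genes of absorption, secretion and detoxification. R-spondins raise the number of Wnt receptors at the surface of stem cells. The survey below covers mainly gene families and pathways outside the Wnt targets. Some Wnt targets are named as well, among them Lgr5 and Ascl2, which the authors count as such.

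The libraries held 28902729 to 35090893 counts in WT and 30635236 to 35528495 in Apc. Levels are given as CPM, the counts of a gene relative to the library size after scaling by the trimmed mean of M values (TMM). The Apc gene itself had 4628, 4386, 4171 and 6810 counts in WT lines 1, 2, 5 and 6 and 10953, 9265, 9777 and 10535 counts in Apc. It was higher in every Apc library (274 ± 10.5 CPM against 175 ± 23.7, SD, n = 4), with a log2 fold change of 0.65 ± 0.10 (SE, edgeR adjusted p = 0.00152). Counts summed over a gene do not show the loss of a floxed exon, so this value does not check the labels.

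The label of the tissue was checked against marker genes. The 8 pan-epithelial markers summed to 6473 to 7711 CPM in WT and 5360 to 6385 in Apc. All 8 enterocyte markers fell, with sums of 8199 to 17533 CPM in WT and 26.5 to 61.1 in Apc, and 5 of 6 Paneth, 5 of 6 goblet, 4 of 6 enteroendocrine and 3 of 6 tuft cell markers fell as well. In bulk RNA, fewer cells of a type and less RNA per cell cannot be told apart. Of 5 stem cell markers, Lgr5, Ascl2 and Smoc2 rose and Olfm4 fell from 1704 ± 644 CPM to 1.83 ± 1.55. Smoc2 was not called without line 5. Markers of fibroblasts summed to 0.678 to 1.26 CPM in WT and 1.53 to 3.15 in Apc, with Dcn and Lum at 0 counts in all 8 libraries. Only 1 of the 8 fibroblast markers was tested, and it was called higher in Apc. Of 8 immune markers, 5 had at most 3 counts in every library. Markers of endothelium summed to 2.25 to 2.94 CPM in WT and 37.0 to 84.6 in Apc. That sum rested on Vwf, Cdh5 and Tek, while Kdr was at 0 in all 8 libraries and Pecam1 fell. Stomach markers summed to 6.76 to 9.63 CPM in WT and 11.8 to 21.2 in Apc.

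Of 16506 genes tested, 1979 were higher in Apc (12%) and 2240 were lower (13.6%) by the rule used for every call below, which needs a log2 fold change above 1 or below -1 together with an edgeR adjusted p under 0.05. Together that is 25.6% of the genes. The CPM of the groups did not overlap for 54.2% of all genes tested, and for 3986 of the 4219 called genes. The change exceeded 4-fold for 1115 of the higher and 1168 of the lower genes. Of the 4219 called genes, 4160 changed in the same direction in all 4 lines. The call was made on the same libraries and favours genes whose lines agree, so this count is a description only. The median log2 fold change over all genes tested was 0.01. These counts depend on the scaling, since Apc libraries had larger TMM factors (1.10 to 1.13) than WT libraries (0.873 to 0.930). With library totals alone, 2762 genes were higher and 1732 lower, the median was 0.30, and the share of called genes that were higher went from 46.9% to 61.5%.

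Across 131 gene families and pathway lists, 113 had at least 10 members tested. Families with the largest shares of genes that fell were enzymes of detoxification and of fatty acid use. Those with the largest shares that rose were cell surface and extracellular matrix proteins, and the machinery of ribosomes, splicing and homologous recombination held almost no called gene.

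**Figure D1:**
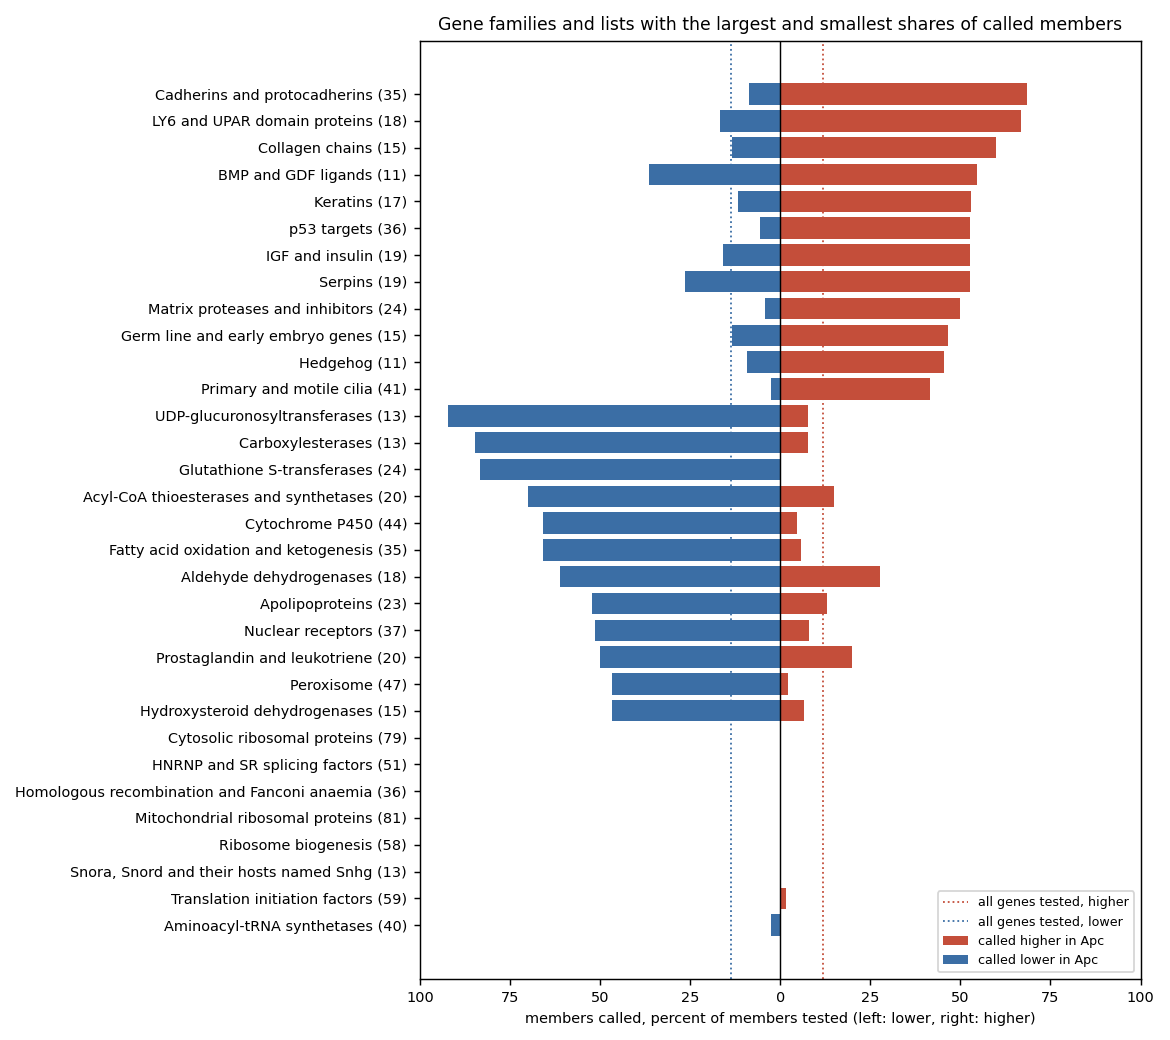
Share of tested members called lower (bars to the left, blue) and higher (bars to the right, red) in Apc, in percent, for the families and lists with the largest and the smallest shares, with the number tested in brackets and the share of all genes tested as dotted lines. UDP-glucuronosyltransferases reach 92.3% lower and cadherins and protocadherins 68.6% higher, against 13.6% and 12% of all genes.

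Genes of nutrient uptake fell. Of 268 solute carriers (SLC) tested of 379 named, 87 fell and 37 rose, against 13.6% and 12% of all genes, with a median log2 fold change of -0.47. Slc5a1, the sodium-coupled glucose transporter of the brush border, had 1556, 2144, 3333 and 1391 CPM in WT lines 1, 2, 5 and 6 and 54.9, 71.8, 53.4 and 48.8 in Apc (log2 fold change -5.13 ± 0.24, edgeR adjusted p = 7.49e-06). Slc6a19, a carrier of neutral amino acids, had 344, 221, 321 and 326 CPM in WT and 0.0263, 0.0297, 0.0822 and 0.126 in Apc (log2 fold change -12.07 ± 0.21, edgeR adjusted p = 3.08e-07). In both genes the highest Apc library lay far below the lowest WT library. Slc2a2 and Slc2a5, which carry glucose and fructose, fell from means of 230 and 214 CPM to 0.232 and 1.43, and Slc11a2, the importer of ferrous iron, fell from 553 to 70.0 CPM. Slc15a1, the carrier of dipeptides, had at most 3 counts in every Apc library, against 17.5, 39.9, 63.3 and 13 CPM in WT, a ratio of 668 (95% counting interval 324 to 1663). Among the carriers that rose were Slc14a1, a urea transporter (3.78 to 124 CPM), Slc39a10, a zinc importer (7.02 to 67.5 CPM), and Slc25a4, a mitochondrial ADP/ATP carrier (27.7 to 159 CPM). With 18 members at or near 0 in 1 group, the median with these at their bound was the same.

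Digestive and lipid export genes moved with the carriers. Sis, the sucrase-isomaltase of the brush border, fell from 5472 ± 1219 CPM to 5.48 ± 3.15. Apoa4, a protein of chylomicrons, had 1437, 1482, 2589 and 496 CPM in WT and 0.158, 0.534, 0.274 and 0.10 in Apc (log2 fold change -12.44 ± 0.30, edgeR adjusted p = 8.82e-07). WT line 6 was the lowest WT library for Apoa4, Apoa1 and Fabp1, and the groups did not overlap for any of them. Mttp, which loads lipid onto apolipoprotein B, fell from 1824 ± 373 CPM to 17.2 ± 2.78, and Apob itself fell from 1339 ± 341 to 99.8 ± 48.0. Of 23 genes tested with an Apo symbol, 12 fell and 3 rose. Without line 5, 8 fell and 1 rose, and without line 1, 9 fell and 1 rose. The family was drawn by symbol and also holds the editing enzymes of the Apobec group and the Apol group. Of 52 enzymes of triglycerides, phospholipids and lipid droplets, 23 fell and 10 rose (median -0.61).

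Fatty acid oxidation fell across most of its enzymes. All 35 listed genes of fatty acid oxidation and ketogenesis were tested, of which 23 fell and 2 rose, with a median log2 fold change of -1.27. Hadh, a dehydrogenase of the mitochondrial cycle, fell from 744 to 152 CPM, and Acadvl, Acadl and Acadm, which act on very long, long and medium chains, fell from 121, 253 and 171 CPM to 37.4, 82.3 and 66.9. Cpt1a, which admits fatty acids into mitochondria, fell by 1.04 on the log2 scale, and by 0.91 without line 1, under the threshold. The 2 genes that rose were Acsl4, an acyl-CoA synthetase for arachidonic acid (42.8 to 114 CPM), and Cpt1c, a carnitine palmitoyltransferase family member typical of neurons (0.444 to 5.56 CPM). Of 47 peroxisomal genes tested, 22 fell and 1 rose (median -0.89). Ehhadh, which acts in peroxisomal oxidation, had 224, 242, 336 and 187 CPM in WT and 14.3, 17.0, 18.1 and 12.7 in Apc (log2 fold change -3.98 ± 0.10, edgeR adjusted p = 8.82e-07). The gene that rose was Far1, which makes fatty alcohols for ether lipids (32.9 ± 10.3 to 105 ± 12.8 CPM). Of 20 acyl-CoA thioesterases and synthetases, 14 fell and 3 rose.

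Signalling lipids and steroids followed in part. Of 20 genes of prostaglandins and leukotrienes, 10 fell and 4 rose (median -0.99). Hpgd, which inactivates prostaglandins, fell from 37.4 to 9.04 CPM, and the uptake carrier Slco2a1 from 28.3 to 1.09. Among those that rose were the synthases Ptges, from 0.156 to 4.35 CPM, and Ptgds, from 1.47 to 16.8, and the exporter Abcc4, from 19.3 to 157. Of 15 hydroxysteroid dehydrogenases, 7 fell and 1 rose (median -0.89), with Hsd17b13 going from 432 to 37.6 CPM and Hsd17b14 from 1.14 to 7.93.

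The enzymes that modify foreign compounds fell most widely. Of 44 cytochrome P450 genes tested of 115 named, 29 fell and 2 rose, with a median log2 fold change of -3.47, or -3.17 with the genes at or near 0 in 1 group set at their bound. Cyp3a11, an oxidase of drugs and steroids, had 252, 109, 288 and 161 CPM in WT and 0.237, 0.594, 0.219 and 0.377 in Apc (log2 fold change -9.08 ± 0.39, edgeR adjusted p = 5.61e-06). Cyp4f14, which acts on fatty acids and eicosanoids, fell from 791 ± 267 CPM to 8.52 ± 1.15. The 2 that rose were Cyp4f17, from 1.84 to 5.17 CPM, and Cyp1b1, which was at 0 counts in every WT library and had 21.7, 14.0, 25.4 and 23.4 CPM in Apc. Cyp1b1 was thus at least 197-fold higher in Apc. Conjugating enzymes fell as well. Of 24 glutathione S-transferases tested of 25 named, 20 fell and none rose (median -2.47). Gstm1 had 1997, 1887, 1182 and 1852 CPM in WT and 228, 251, 291 and 290 in Apc (log2 fold change -2.69 ± 0.19, edgeR adjusted p = 4.10e-05). Of 13 UDP-glucuronosyltransferases, 12 fell and 1 rose, of 13 carboxylesterases 11 fell and 1 rose, and of 7 sulfotransferases 5 fell and none rose. Ugt2b5 fell from 129 to 0.0594 CPM, Ces1f from 264 to 0.431 and Sult1d1 from 170 to 2.41. The exceptions were Ugt8a, which makes galactosylceramide of myelin (0.243 to 6.75 CPM), and Ces2f, with 2.88 CPM in Apc and at most 3 counts in every WT library. Of 18 aldehyde dehydrogenases, 11 fell, Aldh1a1 from 764 to 94.6 CPM, and 5 rose, among them Aldh1a3 (0.256 to 2.82 CPM) and Aldh4a1 (2.39 to 17.3 CPM). Of 5 alcohol dehydrogenases tested, 4 fell and none rose, and Adh1 went from 1820 ± 486 CPM to 3.28 ± 0.343. Members of the Cyp2c, Ugt1a and Gst families are near-identical or share exons, so counts of single members are uncertain.

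Nitrogen, nucleotide and NAD metabolism showed the same direction in part. Cps1, the enzyme that feeds ammonia into the urea cycle, had 3403, 3060, 3158 and 3087 CPM in WT and 8.76, 20.4, 19.3 and 6.10 in Apc (log2 fold change -8.02 ± 0.40, edgeR adjusted p = 1.00e-05). Nags, which makes the activator of Cps1, fell from 51.8 to 0.133 CPM, Otc from 172 to 7.43 and Arg2 from 117 to 0.200. In the opposite direction, Ass1, which joins citrulline and aspartate, had 4.83, 6.41, 3.69 and 4.81 CPM in WT and 15.3, 23.7, 22.7 and 33.0 in Apc, and Arg1, the other arginase, went from 0.810 to 4.13 CPM. Of the 29 listed genes tested of the urea cycle, ornithine, proline and polyamines, 12 fell and 5 rose. Of 28 genes of purine and pyrimidine breakdown and salvage, 11 fell and none rose. Dpyd, the first enzyme of pyrimidine breakdown, fell from 204 ± 44.6 to 0.343 ± 0.243 CPM, and Xdh, which makes uric acid, from 188 ± 64.8 to 33.6 ± 6.85. Of 22 genes of NAD metabolism, 9 fell and none rose, with Naprt, which uses nicotinic acid, going from 134 to 11.1 CPM.

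Transcription factors with roles in these programs were among the genes that fell. Of 37 nuclear receptors tested of 51 named, 19 fell and 3 rose (median -1.13). Hnf4a, a master regulator of the enterocyte and hepatocyte, had 1299, 1227, 1269 and 1245 CPM in WT and 513, 529, 537 and 489 in Apc (log2 fold change -1.29 ± 0.09, edgeR adjusted p = 3.31e-05). Its relative Hnf4g had 243, 252, 297 and 233 CPM in WT and 21.3, 22.5, 19.9 and 21.9 in Apc (log2 fold change -3.57 ± 0.11, edgeR adjusted p = 1.75e-06). Vdr, the vitamin D receptor, had 469, 469, 555 and 496 CPM in WT and 18.1, 17.5, 23.8 and 11.9 in Apc (log2 fold change -4.84 ± 0.16, edgeR adjusted p = 2.57e-06). For these receptors the spread within each group was small beside the gap between the groups. With library totals alone the log2 fold change of Hnf4a was -0.99, under the fold threshold. Ppara, the receptor that controls fatty acid oxidation, fell from 51.0 to 1.11 CPM, Nr1i3 and Nr1i2, the sensors of foreign compounds, from 24.4 and 85.5 to 0.172 and 23.5, and Nr1h4, the bile acid receptor, from 42.5 to 4.63. The 3 that rose were Rarb, Rora and Nr4a1, from 0.219, 0.630 and 3.02 CPM to 3.52, 6.01 and 9.83. Of the intestinal homeobox factors, Cdx1 fell from 153 ± 24.1 to 8.27 ± 2.10 CPM. Cdx2 had 252 ± 23.4 CPM in WT and 217 ± 21.3 in Apc and was not called (log2 fold change -0.21 ± 0.08, edgeR adjusted p = 0.0618).

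Promoters of tested genes were searched for fixed motifs in the 300 bases from 250 before to 50 after the RefSeq start site, on either strand. The letters CAAAGTCC, a core of the HNF4 site, were present in 3.62% of 1600 promoters of genes that fell, 1.34% of 1421 of genes that rose and 1.83% of all 11072. The CDX letters TTTATNG were in 11.9%, 8.73% and 8.61%, the GATA letters AGATAA in 12.2%, 9.29% and 8.22%, and the TATA box TATAAA in 14.1%, 10.4% and 9.16%. The AP-1 letters TGANTCA were in 10.3% and 8.09% against 6.52% of all, and the TEAD letters GGAATG in 18.3% and 18.6% against 14.8%. Both directions lay above all genes for AP-1 and TEAD, and also for the CDX, GATA and TATA letters, where genes that rose lay closer to all genes. The E2F letters TTTGGCGC were in 1.06%, 0.422% and 1.10%. A match is a description of the letters and not of a bound site. The promoters of 4 genes with the HNF4 letters are shown, chosen after their values were seen as those with the highest mean CPM in WT among genes that fell by more than 5 on the log2 scale. The genes are Alpi, the intestinal alkaline phosphatase, Rbp2, which binds retinol in enterocytes, Cyp2c66 and Ggt1, a gamma-glutamyltransferase. They lie at chr1:87101557-87101856 (minus strand), chr9:98490287-98490586 (plus), chr19:39113648-39113947 (plus) and chr10:75573245-75573544 (plus) of GRCm38.p6, and the motif stands in capitals, as GGACTTTG where it reads on the other strand. It starts at positions -19, -133, -104 and -195 relative to the start site. These genes had mean levels of 1247, 425, 301 and 248 CPM in WT and 2.74, 0.815, 1.60 and 0.0899 in Apc.
Alpi: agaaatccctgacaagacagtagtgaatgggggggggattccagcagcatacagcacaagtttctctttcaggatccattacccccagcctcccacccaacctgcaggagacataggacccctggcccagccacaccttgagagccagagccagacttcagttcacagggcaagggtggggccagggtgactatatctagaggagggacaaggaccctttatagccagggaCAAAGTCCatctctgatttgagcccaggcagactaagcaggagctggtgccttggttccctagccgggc
Rbp2: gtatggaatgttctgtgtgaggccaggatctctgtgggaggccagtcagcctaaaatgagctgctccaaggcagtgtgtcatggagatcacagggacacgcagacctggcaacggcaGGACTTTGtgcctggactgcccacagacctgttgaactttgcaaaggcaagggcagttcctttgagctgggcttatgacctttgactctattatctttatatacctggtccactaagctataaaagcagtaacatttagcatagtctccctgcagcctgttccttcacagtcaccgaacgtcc
Cyp2c66: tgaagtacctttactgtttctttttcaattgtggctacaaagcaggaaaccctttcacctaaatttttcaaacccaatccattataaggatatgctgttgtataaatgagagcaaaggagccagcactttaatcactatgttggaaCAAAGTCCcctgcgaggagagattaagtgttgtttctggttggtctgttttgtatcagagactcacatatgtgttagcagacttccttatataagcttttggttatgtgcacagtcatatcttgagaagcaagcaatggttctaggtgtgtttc
Ggt1: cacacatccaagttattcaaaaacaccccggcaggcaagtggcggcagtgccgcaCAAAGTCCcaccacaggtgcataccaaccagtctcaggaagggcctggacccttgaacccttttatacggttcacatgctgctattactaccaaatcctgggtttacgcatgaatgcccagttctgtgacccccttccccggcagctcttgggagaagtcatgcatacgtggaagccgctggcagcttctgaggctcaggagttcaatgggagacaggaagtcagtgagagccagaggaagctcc

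Genes of epithelial immune recognition and stress moved down. Btnl proteins on enterocytes engage gamma-delta T cells, and of 9 BTN and BTNL genes tested 6 fell and none rose (median -3.82). Btnl1 had 150, 115, 178 and 93.5 CPM in WT and 0, 0.0594, 0.0548 and 0.10 in Apc (log2 fold change -11.16 ± 0.30, edgeR adjusted p = 1.27e-06). Of 24 MHC genes tested, 10 fell and 1 rose. The fall was in nonclassical class I genes, with H2-T3 going from 53.9 to 0.269 CPM and H2-Q2 from 192 to 5.94, while the classical H2-K1 was not called (516 ± 90.1 against 344 ± 46.1 CPM, log2 fold change -0.58). The H2-Q genes are close copies and their single counts are uncertain. Of 37 interferon-stimulated genes, 11 fell and 2 rose (median -0.76), but the lines differed. The medians of the log2 ratio of CPM + 0.1 were -0.62, -1.55 and -1.36 in lines 1, 2 and 5 and 0.35 in line 6. The number that fell was 7 without line 5 and 17 without line 6, and at most 1 rose without any 1 line. Irf7 fell from 21.3 to 4.73 CPM and Oasl1 from 54.9 to 8.70, but Oasl1 was higher in Apc than in WT within line 6 (15.7 against 11.1 CPM), and the gene lost its call without line 1, 2 or 5. Against that direction, Ifitm3, an antiviral membrane protein, had 44.1, 56.0, 31.8 and 44.3 CPM in WT and 725, 827, 580 and 699 in Apc (log2 fold change 4.02 ± 0.10, edgeR adjusted p = 8.44e-07), and its neighbour Ifitm1 went from 0.212 to 390 CPM. Of 38 genes of the unfolded protein response and ER chaperones, 10 fell and none rose. Trib3 had 120, 83.4, 109 and 82.6 CPM in WT and 3.82, 21.4, 5.64 and 9.34 in Apc. Ddit3 and Xbp1 fell from 45.5 and 254 CPM to 8.33 and 109. The main chaperone Hspa5 was not called, with 798 ± 159 CPM in WT and 617 ± 51.9 in Apc.

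Extracellular matrix genes rose, led by those of the basement membrane, the sheet of laminin, collagen IV and perlecan on which epithelium rests. Of 15 collagen chains tested of 45 named, 9 rose and 2 fell. The median log2 fold change was 4.06, or 3.33 with the genes at or near 0 in 1 group set at their bound. There were 6 such genes among the 15, and they could pass the filter through the other group alone, which favours their direction. With genes of an FPKM of at least 1 only, 5 chains remained in the test, of which 4 rose and none fell. With limma at a pseudocount of 1, 4 of the 15 rose, none fell and the median was 0.22. Col4a1 had at most 3 counts in every WT library and 50.9, 12.9, 98.0 and 72.2 CPM in Apc, a ratio of 1350 (95% counting interval 578 to 4159). Col4a2, its partner chain and neighbour on chromosome 8, had 43.7, 10.0, 65.5 and 66.1 CPM in Apc, a ratio of 1075 (460 to 3310). Apc line 2 was the lowest library for both chains. Col18a1 rose from 1.63 ± 0.329 to 61.0 ± 15.3 CPM. Of 8 laminin chains tested, 5 rose and none fell. Lama5, the main alpha chain of the adult intestine, had 16.7, 64.6, 40.5 and 24.8 CPM in WT and 429, 409, 363 and 510 in Apc (log2 fold change 3.71 ± 0.36, edgeR adjusted p = 1.74e-04). Lama1 was at 0 in every WT library and had 3.75 ± 0.968 CPM in Apc, at least 35.1-fold higher. Hspg2, which encodes perlecan, had 26.1, 60.9, 46.0 and 54.7 CPM in WT and 156, 166, 162 and 159 in Apc. Of 34 proteoglycan genes and heparan or chondroitin sulfate enzymes, 13 rose and none fell (median 0.67), a count that was 14 and 0 with library totals alone. Hs6st2, a sulfotransferase of heparan sulfate, went from 0.253 ± 0.0775 to 38.4 ± 3.28 CPM, and the glypican Gpc1 from 1.02 to 26. Of 24 matrix proteases and inhibitors, 12 rose and 1 fell (median 1.38). Timp2, an inhibitor of metalloproteinases, had 2.69, 2.79, 2.22 and 4.41 CPM in WT and 87.3, 79.8, 110 and 104 in Apc (log2 fold change 4.99 ± 0.18, edgeR adjusted p = 3.27e-06). Mmp7, which Paneth cells use to activate defensins, rose from 46.2 to 147 CPM while the other 5 Paneth markers fell.

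Cadherins and protocadherins had the largest share of members that rose. Of 35 tested of 98 named, 24 rose and 3 fell, with a median log2 fold change of 2.26. Cdh13, a cadherin without a membrane-spanning part, had 0 counts in every WT library and 61.2, 79.1, 91.0 and 66.9 CPM in Apc, at least 697-fold higher. Cdh1, the classical epithelial cadherin, was not called (906 ± 36.1 CPM in WT and 1025 ± 89.6 in Apc), and Cdh17, the intestinal cadherin, fell from 1140 to 528 CPM. Many of the other members that rose were clustered protocadherins at low levels, such as Pcdhb17, from 0.948 to 4.35 CPM, and Pcdhgc3, from 5.59 to 14.5. The clustered genes share sequence or exons, so their single counts are uncertain. With genes of an FPKM of at least 1 only, 11 members remained in the test, of which 5 rose and 2 fell.

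Genes of primary cilia and Hedgehog signalling rose by small amounts in many members. The cilium is a rod of microtubules at the cell surface in which Hedgehog signals are read. Of 41 cilia genes tested, 17 rose and 1 fell (median 0.79). Ift80, a subunit of the transport particles of the cilium, had 8.85, 7.29, 7.34 and 8.73 CPM in WT and 18.7, 22.9, 21.0 and 22.3 in Apc (log2 fold change 1.40 ± 0.13, edgeR adjusted p = 1.66e-04). Ift81, Ift74, Ift27 and Ift57 of the same particle rose from 4.89, 6.87, 4.56 and 0.15 CPM to 13.7, 16.1, 13.4 and 2.30, and the transition-zone genes Tctn1, Tctn2 and Tmem67 from 3.09, 3.17 and 2.51 to 8.08, 12 and 7.61. Pkd2, a ciliary calcium channel, rose from 8.86 to 27.6 CPM. The member that fell was Dnah9, a motor of motile cilia (1.11 to 0.228 CPM). Of 11 Hedgehog genes, 5 rose and 1 fell. Smo, the signal transducer, had 12.5, 28.8, 16.3 and 22.1 CPM in WT and 75.1, 84.5, 89.7 and 87.6 in Apc (log2 fold change 2.14 ± 0.18, edgeR adjusted p = 8.49e-05). The ligand Shh rose from 0.141 to 1.35 CPM. Ihh, the ligand of the differentiated intestine, was not called (81.6 ± 16.1 against 52.9 ± 9.08 CPM), nor was the target and receptor Ptch1 (48.2 ± 6.33 against 69.1 ± 3.76 CPM, log2 fold change 0.53).

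Targets of the tumour suppressor p53 rose in a majority of the list. All 36 listed genes were tested, of which 19 rose and 2 fell, with a median log2 fold change of 1.08. Without line 6, 18 rose and 5 fell. Phlda3, a repressor of Akt, had 9.63, 10.6, 7.73 and 7.95 CPM in WT and 65.3, 58.3, 50.9 and 50.0 in Apc (log2 fold change 2.65 ± 0.10, edgeR adjusted p = 3.18e-06). Plk2, a stress-induced kinase, had 10.1, 11.7, 10.4 and 12.8 CPM in WT and 82.6, 81.1, 85.6 and 78.2 in Apc (log2 fold change 2.87 ± 0.11, edgeR adjusted p = 3.42e-06). Ccng1 had 184, 216, 151 and 161 CPM in WT and 560, 430, 438 and 475 in Apc (log2 fold change 1.42 ± 0.12, edgeR adjusted p = 9.42e-05). In each of these the groups were far apart and the libraries of a group close together. Zmat3 and Trp53inp1 rose from 54.1 and 49.3 CPM to 190 and 189, and the pro-apoptotic Bax and Bbc3 from 80.0 and 7.58 to 163 and 19.5. Bax lay just over the fold threshold (log2 fold change 1.02) and was not called without line 1 (0.98). The best known target, the cell cycle inhibitor Cdkn1a, did not pass (338, 307, 418 and 182 CPM in WT and 190, 168, 156 and 224 in Apc), and its direction in line 6 was opposite to the other lines. Mdm2, which degrades p53, had 61.0 ± 2.74 CPM in WT and 122 ± 11.3 in Apc, just under the fold threshold (log2 fold change 0.99). Sesn1 and Gadd45a fell, from 53.5 and 24.1 CPM to 16.2 and 9.22.

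**Figure D2:**
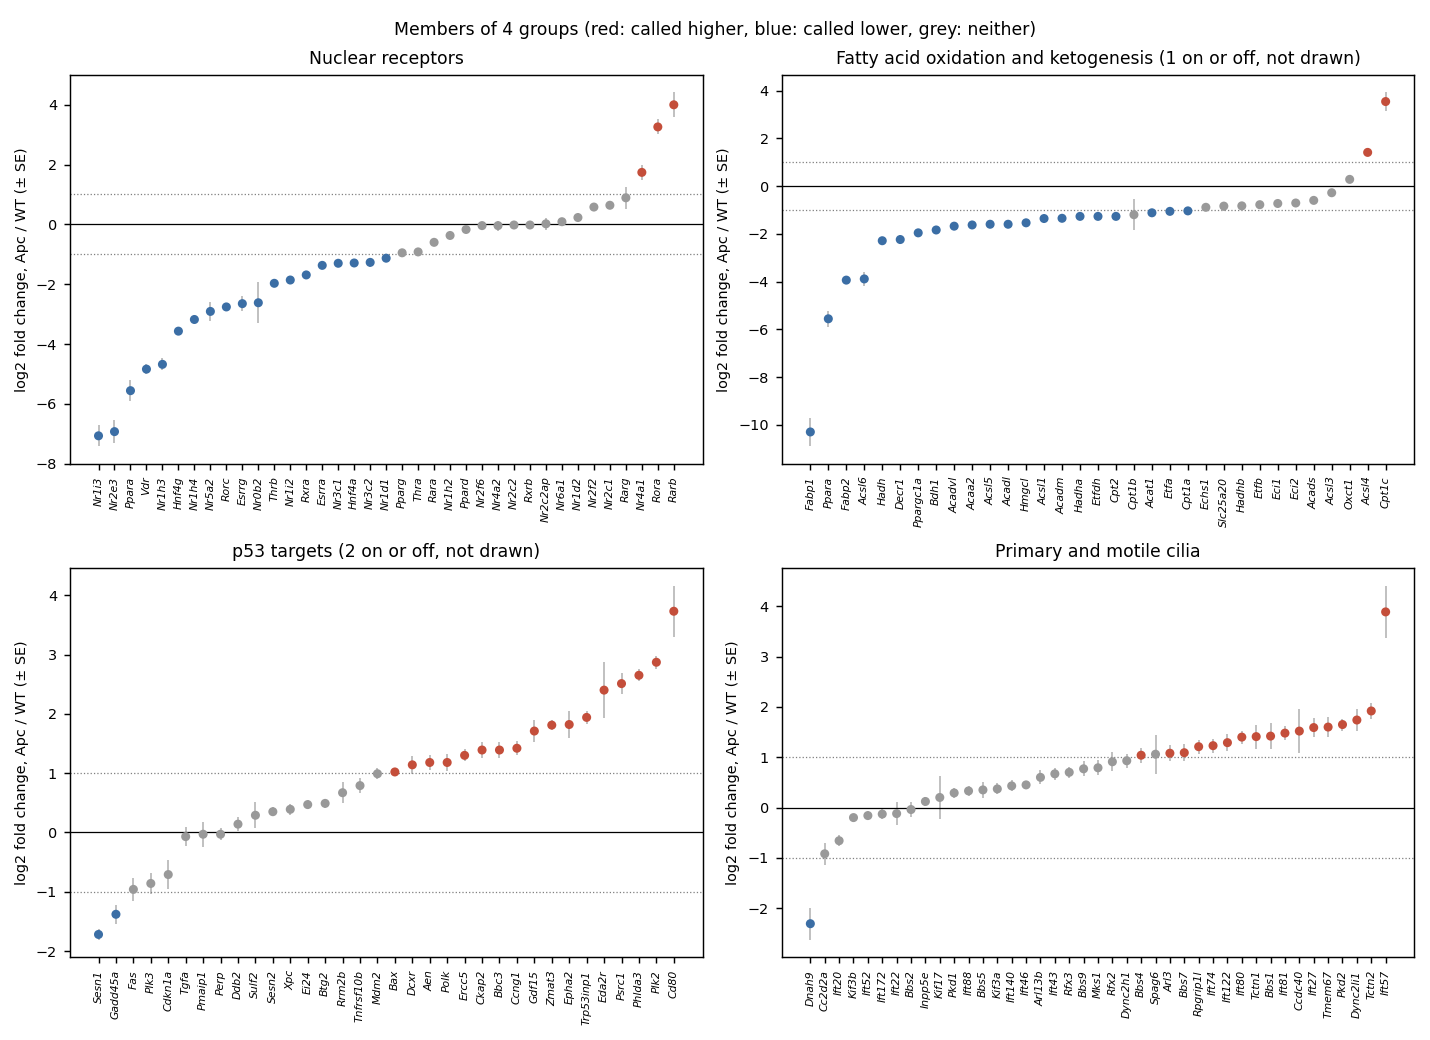
Log2 fold change of Apc over WT with its standard error for tested members of 4 groups, sorted, with members called higher in red, called lower in blue and the others in grey, and with dotted lines at -1 and 1. Of the nuclear receptors 19 lie in blue and of the fatty acid oxidation genes drawn most do, while 19 p53 targets were called higher and 17 cilia genes lie in red, and the few genes at or near 0 in 1 group are not drawn.

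Growth factor systems changed in both directions. Of 19 genes of IGF and insulin signalling, 10 rose and 3 fell (median 1.29). Irs1, the adaptor of the insulin and IGF receptors, had 0.0681, 0.191, 0.397 and 0.277 CPM in WT and 9.81, 16, 18.1 and 21.0 in Apc (log2 fold change 6.15 ± 0.26, edgeR adjusted p = 5.52e-06). The binding proteins Igfbp2, Igfbp3, Igfbp4 and Igfbp5 rose from 0.757, 0.180, 74.5 and 1.55 CPM to 12, 17.9, 210 and 13.2, and Igf2r, which removes IGF2, from 208 to 508. The ligand Igf2 fell from 2.55 to 0.629 CPM. Of 11 BMP and GDF genes, 6 rose and 4 fell, or 6 and 2 without line 2. Bmp4 had at most 3 counts in every WT library and 1.55, 1.31, 4.14 and 10.2 CPM in Apc, a ratio of 168 (95% counting interval 57.3 to 818). Bmp8b went from 1.31 ± 0.411 to 42.2 ± 13.2 CPM. Bmp2, a ligand of the villus, fell from 12.1 ± 4.23 to 3.84 ± 1.80 CPM, although line 6 had 5.98 CPM in WT and 6.5 in Apc, and the call was lost without line 1, 2 or 5. Of 8 Wnt ligands tested of 19 named, 4 rose and none fell. Wnt6 had 0.170, 0.229, 0.0793 and 0.0308 CPM in WT and 34.5, 37.5, 45.3 and 39.9 in Apc (log2 fold change 8.26 ± 0.32, edgeR adjusted p = 3.77e-06), and Wnt7b and Wnt10a were at 0 in every WT library with 7.18 and 2.18 CPM in Apc. Among cytokines, 11 of 31 interleukin genes rose and 9 fell. Il33, an alarmin, had 0.102, 0.534, 0.714 and 0.308 CPM in WT and 31.7, 39.8, 55.3 and 75.2 in Apc (log2 fold change 6.97 ± 0.32, edgeR adjusted p = 7.04e-06). Il18 fell from 13.6 to 1.72 CPM. Of 30 TNF superfamily genes, 11 rose and 7 fell, with the decoy receptor Tnfrsf11b going from 1.41 ± 0.306 to 45.4 ± 7.35 CPM. Of 32 genes of axon guidance, 12 rose and 6 fell. The receptor Robo1 had at most 3 counts in every WT library and 79.6 ± 23.5 CPM in Apc, while its ligand Slit2 fell from 47.3 to 9.24. Sema3f and Sema3c rose from 1.41 and 9.21 CPM to 50.9 and 184.

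Members of the LY6, keratin and serpin families changed. Of 18 LY6 family genes tested, 12 rose and 3 fell (median 2.10). Ly6a had 1.84, 2.63, 0.793 and 0.987 CPM in WT and 171, 138, 168 and 265 in Apc (log2 fold change 6.90 ± 0.39, edgeR adjusted p = 1.64e-05). Lypd8, which keeps flagellated bacteria from the epithelium, fell from 830 to 57.4 CPM. Of 17 keratins, 9 rose and 2 fell. Krt4, a keratin of stratified epithelium, had 0.0340, 0.153, 0.0793 and 0.277 CPM in WT and 248, 118, 147 and 117 in Apc (log2 fold change 10.05 ± 0.35, edgeR adjusted p = 2.64e-06). Of the 8 squamous markers 2 were tested, Krt6a, Krt6b and Krt13 had at most 3 counts in every library, and the 8 summed to 0.154 to 0.382 CPM in WT and 1.37 to 5.07 in Apc. Krt7 and Krt18 of simple epithelium rose from 154 and 496 CPM to 558 and 1047, and Krt20 of differentiated enterocytes fell from 178 to 3.59. Krt18 was not called without line 5. Of 19 serpins, 10 rose and 5 fell, but 7 of the 19 were at or near 0 in 1 group. With genes of an FPKM of at least 1 only, 6 serpins remained in the test, of which 3 rose and 2 fell.

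Developmental transcription factors changed in both directions. Of 9 SOX genes tested of 27 named, 5 rose and none fell. Sox17, a factor of definitive endoderm, was at 0 in every WT library and had 190, 234, 238 and 141 CPM in Apc, at least 1877-fold higher. Sox21 had 0.987, 0.191, 0.238 and 0.0925 CPM in WT and 151, 132, 172 and 100 in Apc. Of 53 homeobox genes outside the HOX clusters, 18 rose and 13 fell. Prox1, known from lymphatic endothelium and liver, had 3.67, 3.55, 2.62 and 4.25 CPM in WT and 169, 348, 445 and 526 in Apc (log2 fold change 6.62 ± 0.32, edgeR adjusted p = 8.10e-06). Isx, an intestinal homeobox gene that represses vitamin A uptake, had 0.0681, 0.343, 0.198 and 0.0308 CPM in WT and 106, 78.7, 98.0 and 89.8 in Apc. Pdx1 of the duodenum and pancreas and Onecut2 fell from 34.1 and 215 CPM to 1.93 and 35.3. The 4 HOX genes tested of 39 named, Hoxa2, Hoxa3, Hoxa4 and Hoxa5, all fell, from 0.697, 2.99, 0.380 and 0.479 CPM to 0.0826 or less. At such low levels in Apc these genes would pass the filter mainly through WT, so the filter favours their common direction. None of them was tested at an FPKM of at least 1, and only 1 was called lower with limma at a pseudocount of 1. Of 346 zinc finger genes named Zfp, 42 rose and 12 fell (median 0.31), so that the share that rose was close to the 12% of all genes. Of 32 imprinted genes, 10 rose and 2 fell. Peg3, which is expressed from the paternal allele, had 0.578, 3.32, 2.90 and 3.64 CPM in WT and 30.7, 133, 43.0 and 63.5 in Apc (log2 fold change 4.66 ± 0.31, edgeR adjusted p = 3.19e-05). Of 15 germ line and early embryo genes tested of 53 named, 7 rose and 2 fell. Tex15, a gene of the male germ line, had 18.8, 37.5, 23.2 and 37.8 CPM in Apc and at most 3 counts in every WT library, a ratio of 1104 (95% counting interval 378 to 5356), while Piwil2 fell from 11.3 to 0.597 CPM.

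The letters CTTTGAT, which TCF and LEF factors bind, were in 3.80% of promoters of genes that rose, 3.06% of those of genes that fell and 3.11% of all, in the same windows and on either strand. The promoters of Tnfrsf19, a receptor of the TNF family, and Sp5, a zinc finger factor, are shown as examples of genes that rose and hold these letters, picked after their values were seen and by no fixed rule. They lie at chr14:61037938-61038237 (minus strand) and chr2:70474673-70474972 (plus strand) of GRCm38.p6, and the capitals mark the motif, which reads ATCAAAG in Tnfrsf19. Tnfrsf19 had 9.83, 16.4, 9.04 and 16.2 CPM in WT and 222, 337, 330 and 363 in Apc, and Sp5 had 9.08, 10.2, 8.45 and 9.62 in WT and 35.3, 69.5, 73.4 and 68.6 in Apc.
Tnfrsf19: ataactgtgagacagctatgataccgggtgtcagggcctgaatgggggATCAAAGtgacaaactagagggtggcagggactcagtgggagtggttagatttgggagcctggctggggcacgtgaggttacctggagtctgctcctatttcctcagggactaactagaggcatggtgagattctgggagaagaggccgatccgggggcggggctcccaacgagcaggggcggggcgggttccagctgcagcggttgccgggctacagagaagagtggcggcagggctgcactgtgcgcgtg
Sp5: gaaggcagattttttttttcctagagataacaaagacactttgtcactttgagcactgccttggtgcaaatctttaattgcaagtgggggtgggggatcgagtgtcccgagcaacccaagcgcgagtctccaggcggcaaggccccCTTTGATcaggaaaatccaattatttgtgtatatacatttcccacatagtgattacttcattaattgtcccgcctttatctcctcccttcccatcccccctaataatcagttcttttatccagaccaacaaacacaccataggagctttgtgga

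Families of basic cell function held few or no called genes. None of 79 cytosolic ribosomal proteins, 81 mitochondrial ribosomal proteins, 58 genes of ribosome biogenesis, 51 HNRNP and SR splicing factors or 36 genes of homologous recombination and the Fanconi pathway was called by edgeR, and none was called by DESeq2. Small shifts were present all the same. By the adjusted p alone 41 of 58 ribosome biogenesis genes, 32 of 51 splicing factors and 24 of 36 recombination genes were higher. In the other direction, 37 of 81 mitochondrial ribosomal proteins were lower. Of the cytosolic ribosomal proteins, 11 of 79 were lower and 1 was higher. Over all 16506 genes, 4490 were higher and 4369 lower by the adjusted p alone. The share in the named direction lay above that of all genes in each list but the cytosolic ribosomal proteins. The medians of these lists, in the order first named, were -0.19, -0.25, 0.41, 0.32 and 0.56. The medians of both kinds of ribosomal protein turned to 0.10 and 0.04 with library totals, so that their direction depends on the scaling. With library totals, 9 recombination genes and 4 of ribosome biogenesis were called higher. Of 59 translation initiation factors only Eif5a2 was called, from 0.956 to 6.03 CPM, and of 40 aminoacyl-tRNA synthetases only Nars, which fell by 1.01 on the log2 scale and was not called without line 1, 5 or 6. Replication and mitosis genes were called higher at shares close to or below the 12% of all genes. Of 38 replication genes, 5 were called higher and none lower (median 0.71), but 1 without line 5, 2 without line 1, 3 without line 2 and 8 without line 6. By the adjusted p alone 31 of them were higher, against 4490 of all 16506 genes. Of 38 mitosis genes, 3 were called higher and none lower (median 0.62), and 35 were higher by the adjusted p alone. Mcm2, a subunit of the replicative helicase, had 122, 115, 107 and 155 CPM in WT and 261, 254, 267 and 217 in Apc (log2 fold change 1.01), and its call was lost without line 1, 2 or 5. With library totals 19 replication and 11 mitosis genes were called higher. Of 47 genes of respiratory complex I, 5 fell and none rose (median -0.61). By the adjusted p alone 41 of the 47 were lower, against 4369 of all 16506 genes. With library totals the median was -0.32 and none was called.

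Some changes were close to a switch. Among called genes, 323 had at most 3 counts in every WT library and 213 had at most 3 counts in every Apc library, of which 259 and 122 code for protein. Such a gene is treated as not detectable in that group, a limit that covers counting error only. Fn1, the fibronectin of the matrix, had 18, 10.6, 26 and 34.2 CPM in Apc and a ratio of 854 (95% counting interval 292 to 4145). Efemp1, a fibulin, was at least 253-fold higher in Apc. In the other direction, G6pc, which releases free glucose, had 54.9, 36.8, 121 and 70.6 CPM in WT and a WT to Apc ratio of 3451 (1180 to 16737). Apoc3 had 171, 205, 305 and 56.1 CPM in WT and a ratio of 3255 (1652 to 7541). Cyp2d22 was at 0 in every Apc library and had 7.35, 34.8, 74.1 and 11.1 CPM in WT, at least 391-fold lower in Apc.

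**Figure D3:**
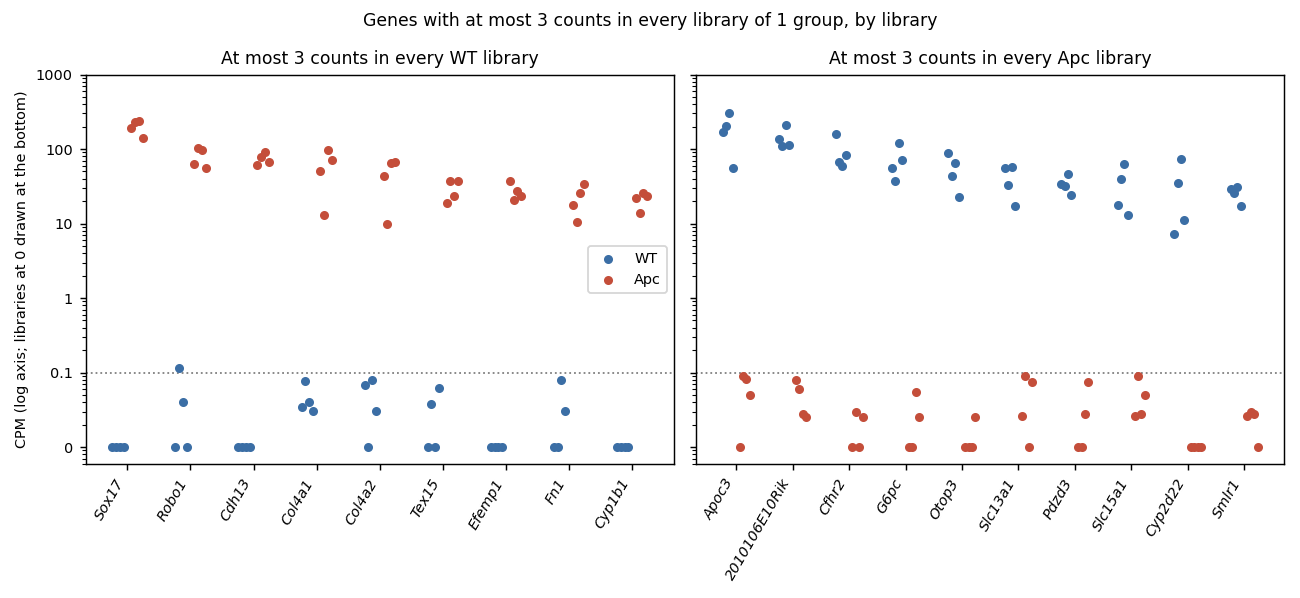
CPM on a log axis in each of the 4 WT (blue) and 4 Apc (red) libraries for genes with high means among those with at most 3 counts in every WT library (left) and in every Apc library (right). Libraries at 0 are drawn at the bottom, and the dotted line at 0.1 CPM lies near the level of 3 counts, and the groups do not overlap for any of the genes drawn.

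The change also redistributed the counts. Genes called lower held 20.5% to 26.3% of the counts of a WT library and 5.78% to 6.20% of an Apc library, and genes called higher held 1.30% to 1.69% and 6.14% to 6.91%. A share depends on transcript length, so shares are compared between groups and not between genes. The mitochondrial gene mt-Co1 went from 2.27% ± 0.417 of counts in WT to 1.55% ± 0.171 in Apc (SD, n = 4), Sis from 0.490% ± 0.0977 to 6.03e-04% and Cps1 from 0.285% ± 0.0137 to 0.00150%. Mt1 and Mt2, the metal-binding metallothioneins, fell from 2982 ± 616 and 2435 ± 580 CPM to 306 ± 47.1 and 202 ± 50.7. The largest rise was in Hsp90ab1, a chaperone, from 0.257% ± 0.0327 to 0.448% ± 0.0316, followed by Pkm, a glycolytic kinase, from 0.244% ± 0.0147 to 0.391% ± 0.0202. After TMM scaling these 2 genes and mt-Co1 were not called (log2 fold changes 0.52, 0.39 and -0.83).

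**Figure D4:**
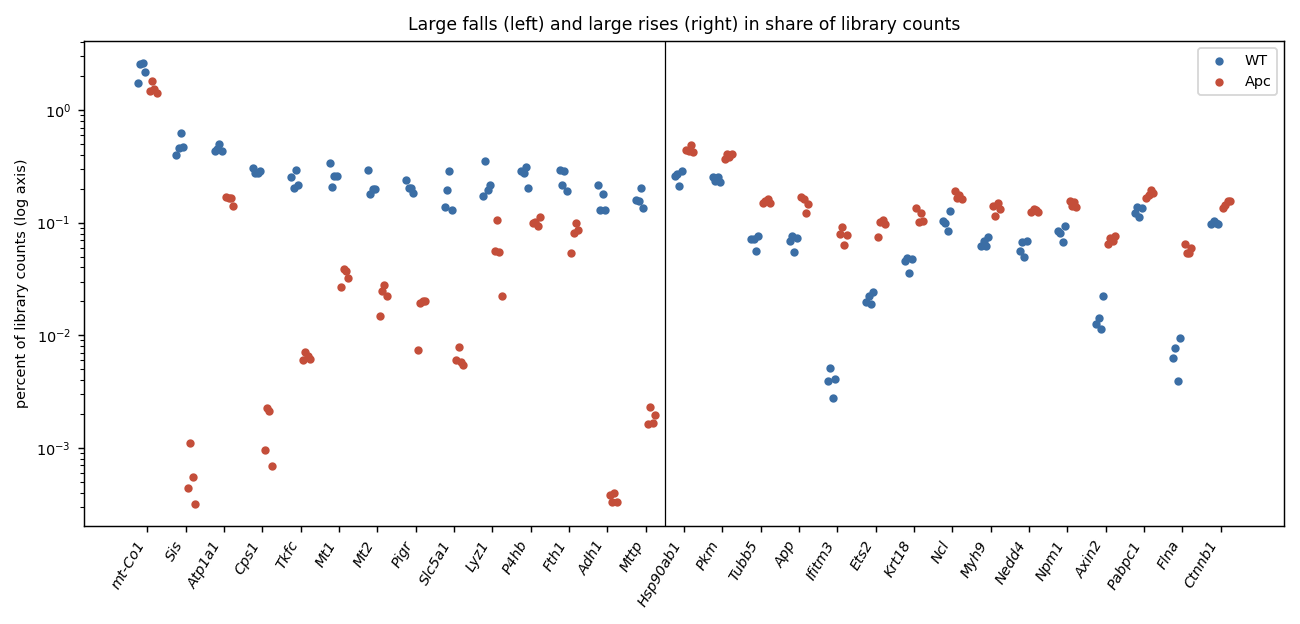
Percent of library counts on a log axis in each WT (blue) and Apc (red) library for genes with large falls in share (left of the line) and large rises (right). The falls span several orders of magnitude for Sis, Cps1 and Adh1, while the rises on the right are mostly within 1 order of magnitude.

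Among annotated kinds of gene, protein-coding genes were called at 13.5% higher and 14.3% lower (13229 tested) and lincRNAs at 13.6% and 14.3% (419 tested). Antisense genes were called at 6.76% and 14.9% (651 tested), and processed pseudogenes at 1.52% and 5.63% (1119 tested). Reads of antisense genes and their partners cannot be told apart unless counting used the strand, which the sources used here do not give. By chromosome, the share that fell was highest on chromosome 19, with 19.7% of 553 genes, and the share that rose was highest on chromosome 15, with 17.1% of 603. The X chromosome had 15.6% higher and 8.26% lower, with a median of 0.16.

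The sign of the median was the same in all 4 lines for 78 of 113 families and lists, and was mixed for the others. Among the mixed ones were interferon-stimulated genes, interleukins (-0.03, -0.05, 0.16 and 0.64) and homeobox genes outside the HOX clusters (0.07, 0.37, -0.10 and 0.10). For fatty acid oxidation the medians of the log2 ratio of CPM + 0.1 were -1.41, -1.20, -1.45 and -1.17 in lines 1, 2, 5 and 6, for cilia 0.76, 0.75, 0.77 and 0.72, and for p53 targets 1.15, 0.78, 0.95 and 1.14. Laminins spread more, with 2.14, 0.82, 2.12 and 3.38. Some small counts moved by 1 gene when a line was left out. Only 1 collagen fell without line 1 or 2, only 1 keratin without line 1, 2 or 6, 2 cilia genes fell without line 5, 1 Wnt ligand fell without line 5 or 6, and 1 BTN or BTNL gene rose without line 1, 2 or 6. Each line holds 1 library per group, so that a difference between lines in their response has no replicate.

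**Figure D5:**
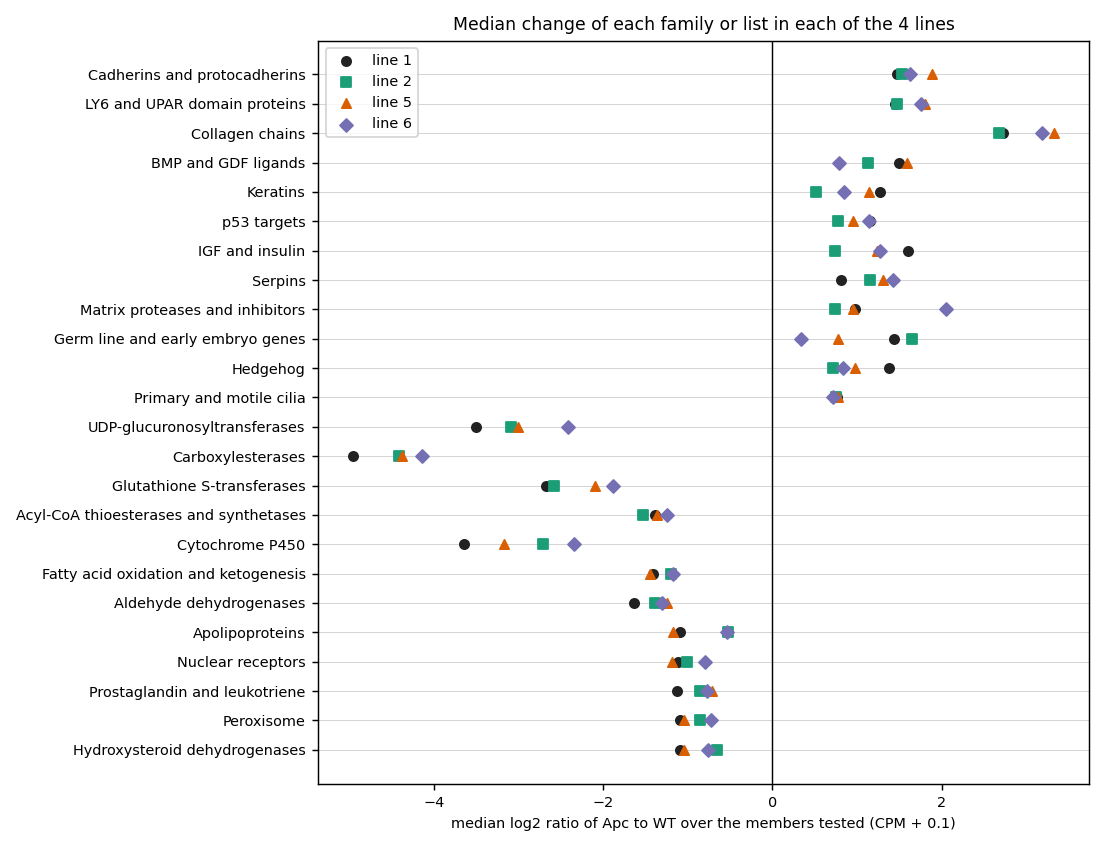
Median log2 ratio of Apc to WT (CPM + 0.1) over the tested members of each family or list, with 1 symbol for each of lines 1, 2, 5 and 6. For carboxylesterases the lines read -4.95, -4.41, -4.38 and -4.14 and for collagens 2.72, 2.68, 3.33 and 3.18, on opposite sides of 0.

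Single genes departed from this. Among called genes with at least 10 CPM in the higher group, the log2 ratio varied most over lines for Cyp2c29, with 135, 43.0, 78.7 and 101 CPM in WT and 3.21, 8.76, 0.329 and 0.201 in Apc. Sprr2a2, a cornified envelope gene, had 102 CPM in WT line 2 and 2.0 to 8.84 in the other WT lines. Bst1, an enzyme that cleaves NAD, had 30.1 and 39.2 CPM in WT lines 2 and 5 and 3.78 and 0.832 in lines 1 and 6. Dkk3 had 12.1 and 26.8 CPM in Apc lines 5 and 6 and 1.11 and 0.831 in lines 1 and 2. Tut4, which adds uridines to RNA, had 0.817 CPM in WT line 1 and 14.2 to 22.3 in the other WT lines, against 68.6 to 75.3 in Apc. Itga7 and Oasl1 fell in 3 lines and had log2 ratios of 0.61 and 0.50 in line 6. Itga7 was not called without line 1, 2 or 5. A test of the line across both groups called 3 genes (0.0182% of 16506), with 762 at an unadjusted p under 0.05. The filter needs 4 libraries, so a gene above it in 1 line alone could not be tested, and 49 genes were called with no filter on FPKM. The 3 genes called were the pseudogenes Gm11942 and Gm11814, high in both libraries of line 2, and Gm29216, high in both of line 5. Gm11942 had 1099 and 1247 counts in line 2 and 6 to 15 in the other libraries.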

How the data were processed

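RNA-seq of polyA RNA was analysed in 8 of 15 libraries. The authors checked reads with FastQC, aligned them with STAR to GRCm38, deposited gene counts made with HTSeq 0.6.0 and deposited FPKM (fragments scaled by transcript length and library size) made with cufflinks 2.2.1. The strand setting and annotation release are not given in the sources used here. Groups and line numbers came from the labels. The counts and FPKM tables held 43629 and 43437 genes, of which 42462 were given a symbol. A gene was tested if 4 or more of the 8 libraries had an FPKM of 0.1 or above, so that a gene high in 1 group could pass through that group. The main test was edgeR 4.0.16 (R 4.3.3) by quasi-likelihood on the counts, with TMM scaling, genotype and line as terms and Benjamini-Hochberg adjustment. The fit gives no standard error (SE), so the SE of a log2 fold change was taken as its size divided by the square root of the F statistic of its test. A call needs a log2 fold change above 1 or below -1 and an adjusted p under 0.05. DESeq2 1.42.0, limma 3.58.1 on log2 FPKM with a pseudocount of 1 or 0.1, other scalings, other filters, no block and leaving out each line were alternatives. The scripts were tested on simulated data.

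Genes with at most 3 counts in every library of 1 group were given as a ratio of summed counts, scaled by library size, with a 95% counting interval, or, where that group was at 0, as a bound against 3 counts per library. Intervals and bounds cover counting error only. The families (85) and lists (46) and the part described were chosen with earlier results of these data known. Genes named were members of these families and lists, the 15 largest rises and falls, the 15 largest rises and falls in share of counts, the 10 highest genes at or near 0 in either group, the 10 lowest p in the test of lines, the 10 widest ranges over lines, Apc and the cell type markers. A few genes that this rule selects are not reported here. Xist, the Y-linked genes and the promoters were chosen after values were seen. Promoter sequences came from RefSeq (GRCm38.p6). The files name no batch. Replicates of a group differed by more than sampling noise in every pair.

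The shared line numbers were checked as a pairing. Deviations from the group means of same-numbered libraries correlated at 0.226, 0.143, 0.0773 and -0.0852 over 12680 genes for lines 1, 2, 5 and 6.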

Additional observations from a re-analysis of the deposited data

Results flagged for a closer look

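In groups of 4 libraries, a named gene is listed here where 1 library stood apart from the other 3 by more than Dixon's 95% critical value for the gap as a share of the range. Of 330 groups, 22 did so, and chance alone gives about 1 in 20. In WT, line 2 stood apart for Cdh1 (960 CPM), Gm11814 (10.0), Gm11942 (41.9) and Sprr2a2 (102), line 5 for Gm29216 (26.1) and Slc25a4 (20.3), line 1 for Otc (194), and line 6 for Ift27 (6.54), Sult1d1 (124) and Xist (1165). In Apc, line 2 stood apart for Gm11814 (6.86 CPM), Gm11942 (37.0), Ppara (1.99) and Slco2a1 (1.31), line 1 for Mmp7 (80.4) and Sp5 (35.3), line 5 for Gm29216 (11.8) and Abcc4 (191), and line 6 for Gpc1 (35.1), Xist (2285), Uty (0.0251) and Kdm5d (0). The 3 pseudogenes and Xist stood apart in the same line in both groups. The pseudogenes were named by the test of lines, Sprr2a2 by its range over lines, and Xist, Uty and Kdm5d after values were seen. The count of 22 therefore cannot be set against chance.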

How the results depend on the processing

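Without the line as a block, 2013 genes were higher and 2279 lower, and of the named genes only Nars lost its call. The correlations did not show that the line numbers pair all libraries. Same-numbered libraries correlated above 0.1 in lines 1 and 2 only, and WT line 5 correlated best with Apc line 6 (0.198). Single genes did go with the line number: Gm11942 and Gm11814 were high in both libraries of line 2, Gm29216 in line 5 and Xist in line 6. These genes were picked by the test of lines or after values were seen. The Y-linked counts of WT line 1 lay below those of Apc line 1. Leaving out each line in turn, the higher genes numbered 1885 to 1975 and the lower genes 2032 to 2435. With genes of an FPKM of at least 1, which leaves 12225 genes, 1167 were higher. With limma on log2(FPKM + 1), 1129 were lower. By the adjusted p alone, 4490 were higher and 4369 lower. No called gene had the opposite sign in any fit of the counts. The share of called genes that were higher was 46.9%, but 61.5% with library totals, 55.3% with limma at a pseudocount of 1 and 60.2% at 0.1. The genes that differed between lines numbered 3, but 10 with the newer quasi-likelihood form, 49 with no filter on FPKM, and 1 to 10 without 1 line. Cdx2 turned to 0.08 with library totals and to 0.07 in both limma fits, and Gm11942 to 0.03 with library totals. For mt-Co1 the limma fits gave 10.23 and 12.72, as FPKM is listed at 0 in 3 WT libraries. In all, 31 of 199 named genes lost a call or turned under at least 1 of these settings. Counts of families and lists moved by over 1.5 times in 380 of 3616 cases, most often with limma at a pseudocount of 1 (100) and an FPKM of at least 1 (73). BMP and GDF ligands had as many members higher as lower, 4 each, with an FPKM of at least 1. Low counts limit what can be said of genes under 0.1 CPM.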

Other observations

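Some values describe the lines and belong to no comparison above. Xist, which is transcribed from the inactive X chromosome, had 11, 31, 18 and 37799 counts in WT lines 1, 2, 5 and 6 and 12, 7, 13 and 90999 in Apc. The Y-linked gene Ddx3y had 170, 772, 1871 and 0 counts in WT and 2392, 1712, 2145 and 0 in Apc. Eif2s3y had 251, 1100, 2688 and 0 counts in WT and 2997, 3007, 3474 and 0 in Apc. Uty had 77, 361, 961 and 0 in WT and 1448, 1246, 1539 and 1 in Apc, and Kdm5d had 97, 411, 1054 and 0 in WT and 1564, 1338, 1652 and 0 in Apc. Line 6 thus stood apart from the other lines in both groups, and the counts of the Y-linked genes in WT line 1 lay below those of the other WT lines that had them. The cause was not tested.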
